A study of Mus musculus with 2 samples.

Results

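The Mir6896 to Mir7094 genes are a run of mouse microRNA (miRNA) genes whose registry numbers follow each other and whose hairpins lie almost all at the ends of introns. Members were all genes annotated as miRNA in GENCODE M21 numbered from Mir6896 to Mir7094, with or without a suffix. This rule used names only and no measured value, and it gave 201 of the 2202 annotated miRNA genes. The sequenced material was small RNA, with fragments shorter than 30 nucleotides, of the left cerebral cortex. The mice were males of the strain B6CASTF1/J, the first-generation hybrid of C57BL/6J and CAST/EiJ, at an age of 2 months. The series holds 1 group of 2 animals with 1 library each, animal 3 (library 1) and animal 4 (library 2). A single donor identifier covers both samples, and only their numbers mark them as separate animals, so differences between the libraries may be technical.

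Most miRNAs are cut from a hairpin in a longer transcript by Drosha and DGCR8, then by Dicer, and one strand is loaded into an Argonaute protein. A mirtron takes another way: the hairpin is an intron or the end of one, splicing makes one or both of its ends, and Dicer cuts it without Drosha. When the hairpin fills a short intron both ends come from splicing. A 5′-tailed mirtron ends at the 3′ splice site and carries extra intron sequence ahead of the hairpin that must be trimmed, and a 3′-tailed mirtron is the mirror image. Introns begin with GU and end with AG, with a stretch rich in C and U before the AG. The 3′ arm of an untailed or a 5′-tailed mirtron therefore includes the end of the intron. Mirtrons of mammals were described mainly by sequencing, and for few of them is a function known.

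The position of the hairpins is the property the genes share, and the sequences of several high members show it. Each hairpin below is the annotated transcript of GENCODE M21, written 5′ to 3′, with capitals for letters that are the first or last 2 bases of the host intron. Mir7080 and Mir6944 fill their introns in Cpne7 and Dbn1, and the other hairpins end on the last base of an intron of Rasgef1a, Ncan, Pink1, Chd4 and Smurf1.
Mir7080 (mm10 chr8:123130106-123130172, + strand): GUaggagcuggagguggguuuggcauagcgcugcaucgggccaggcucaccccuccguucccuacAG
Mir6944 (mm10 chr13:55477681-55477776, - strand): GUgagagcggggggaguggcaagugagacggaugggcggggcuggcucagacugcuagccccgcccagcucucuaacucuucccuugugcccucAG
Mir7044 (mm10 chr6:118085192-118085263, + strand): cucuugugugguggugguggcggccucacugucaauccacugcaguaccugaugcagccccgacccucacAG
Mir7066 (mm10 chr8:70102524-70102586, - strand): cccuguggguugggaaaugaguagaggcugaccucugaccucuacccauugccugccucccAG
Mir7019 (mm10 chr4:138316132-138316200, - strand): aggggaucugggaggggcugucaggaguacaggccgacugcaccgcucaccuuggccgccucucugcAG
Mir7045 (mm10 chr6:125097024-125097086, + strand): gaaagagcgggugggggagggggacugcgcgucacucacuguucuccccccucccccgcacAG
Mir7039 (mm10 chr5:144896732-144896816, - strand): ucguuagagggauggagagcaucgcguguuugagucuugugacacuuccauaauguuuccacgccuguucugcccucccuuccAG

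The mature arms of 5 of these, from RefSeq (GRCm38.p6), follow with the seed, bases 2 to 8, in capitals. The seed is the stretch that pairs with target messenger RNAs. The 3p arms of Mir7044, Mir6944, Mir7066 and Mir7019 stop on the AG of the splice site, while that of Mir7080 stops ahead of it.
mmu-miR-7080-5p: gUAGGAGCuggagguggguuugg
mmu-miR-7080-3p: cAGGCUCAccccuccguucccu
mmu-miR-7044-5p: gUGUGGUGgugguggcggc
mmu-miR-7044-3p: aUGCAGCCccgacccucacag
mmu-miR-6944-5p: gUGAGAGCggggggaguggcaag
mmu-miR-6944-3p: uAACUCUUcccuugugcccucag
mmu-miR-7066-5p: uGGGUUGGgaaaugaguagagg
mmu-miR-7066-3p: uCUACCCAuugccugccucccag
mmu-miR-7019-5p: aUCUGGGAggggcugucaggagu
mmu-miR-7019-3p: uCACCUUGgccgccucucugcag

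Of the 201 members, 199 had a hairpin end within 10 bases of an intron end on the same strand, against 55 of the 2001 other miRNA genes (2.75%). The members at the 3′ end of an intron only, the layout of a 5′-tailed mirtron, numbered 178. Another 18 filled their intron, the layout of a mirtron without a tail. At the 5′ end of an intron only lay 3 members, Mir6936 in Sirt7, Mir6977 in Ptprs and Mir6927 in Mllt6. The remaining 2, Mir7025 in Pdgfra and Mir7036b in Add1, overlapped an exon and had no intron end within 10 bases. The name mirtron-rich therefore holds for position, mostly in its tailed form. Of the other miRNA genes, 998 lay in no annotated gene on their strand, 621 inside an intron away from its ends and 327 in an exon. The position comes from the annotation alone, and how each miRNA is made was not tested.

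**Figure D1:**
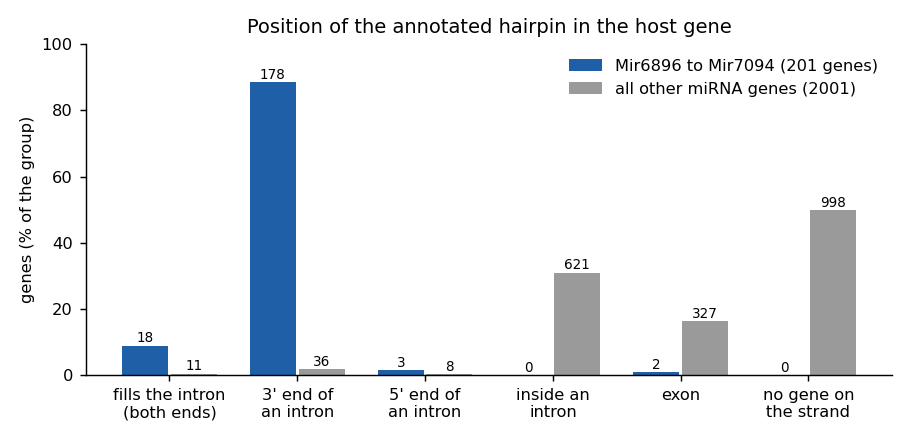
Share of genes in each position class (percent of the group, y axis) for the 201 members (blue) and the 2001 other miRNA genes (grey), with the number of genes above each bar. The 178 members at the 3′ end of an intron stand out beside 36 such genes among the others.

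The splice site letters were written into the hairpins. Of the 196 members at a 3′ intron end, 187 ended exactly on the last base of the intron, and all 187 of these hairpins ended in AG, 158 of them in CAG and 27 in UAG. The other 9 ran past the intron by 1 to 7 bases in the annotation, and none of those had more than 6 reads in the libraries together. Over all members 93.0% of the hairpins ended in AG, against 7.40% of the hairpins of the other genes. Of the other genes, 24 ended exactly on the last base of an intron, and all 24 ended in AG, 23 of them in CAG. The AG end thus follows the position and is not particular to the members. Of the 18 hairpins that began on the first base of an intron, 17 began with GU, the exception being Mir7088 in Mst1. In the 20 bases ahead of the last 3, the median share of C and U was 75% in the members and 50% in the other genes.

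The arms carried the same bias. RefSeq gave 354 mature sequences for 185 members. The 177 3p arms of members held 71.8% C and U and 77.4% of them ended in AG, against 53.6% and 11.2% for 525 3p arms of the other genes. The facing 5p arms were rich in G, with 44.2% in members and 28.9% in other genes. Of the 172 3p arms at a 3′ intron end, 135 stopped on the last base of the intron, 13 stopped 1 base short and 17 stopped 2 bases short. Of the 19 5p arms at a 5′ intron end, 15 began on its first base. Both arms had a median length of 22 bases.

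Host genes were nearly all different. The 201 members lay in 196 host genes on 20 chromosomes, 199 of them in protein-coding hosts, and the exceptions were Mir7094-1 and Mir7094-2 in immunoglobulin heavy chain variable segments. Ankrd52, Arap3, Cmip, Skiv2l and Srebf1 each held 2 members, in different introns. In Ankrd52, Mir6914 had 0 reads in library 1 and 4 in library 2, while Mir6915 had 32 and 25. In Skiv2l, which codes for an RNA helicase of the exosome, Mir6971 had 14 and 26 reads and Mir6970 had 4 and 3. The pairs in Cmip, Arap3 and Srebf1 had at most 9 reads a member.

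Members were shorter and richer in G and C than other miRNA hairpins. Median hairpin length was 66 bases in members and 93 in the others, and median GC content 57.1% and 50.0%. Median predicted folding energy was -26.2 and -34.3 kcal/mol, where a lower value is a stabler fold. The 55 other genes at an intron end were close to the members, with medians of 67 bases, 56.25% and -29.1 kcal/mol. Short hairpins rich in G and C were thus not particular to the members. These energies are of whole hairpins of unlike length and were not divided by length, so they do not compare stability per base. Only 4 members shared a stretch of 20 bases with another annotated miRNA hairpin: Mir6970, Mir7065, Mir7094-1 and Mir7094-2. Among the other genes 1083 did. This matters for the counts, because a read that maps to several places was given to no gene.

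Library 1 held 3827158 reads on the sense strand of miRNA genes and library 2 held 4553291, and levels below are counts per 1000000 of these (CPM). They were not divided by hairpin length, since each read was counted as a small RNA fragment, whichever part of the gene it came from. Of the 8 neuronal markers, Mir132, Mir128-1, Mir137 and Mir138-1 lay between 5240 and 39333 CPM (mean of the libraries). Mir9-3 was at 56.7 CPM and Mir124a-1, Mir124a-2 and Mir124a-3, copies that yield the same mature miRNA, at 3.28, 0.899 and 0.894. Oligodendrocyte Mir219a-2 was at 2057 ± 256 CPM (SD, n = 2). The 3 red blood cell markers were detected in both libraries and did not move together: Mir451a was at 58.3 CPM in library 1 and 1419 in library 2, Mir144 at 24.6 and 96.0, and Mir486 at 51.0 and 34.7. Liver Mir122 was at 75.5 ± 4.42 CPM, and of the muscle markers Mir206 was at 29.5 ± 5.84 while Mir1a-1 and Mir133a-1 had 0 reads. By their names Mir9-3, Mir1a-1 and Mir133a-1 are numbered copies as well, and reads that map to several places are in no count. Low or 0 counts of such copies therefore do not show that the miRNA is low or absent. The part of other cell types in the members' reads was not tested, and in tissue fewer cells of a type and less RNA per cell cannot be told apart.

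Most members had a read, and most of those stood at a low level. At least 1 read fell on 165 of the 201 members (82.1%), and 36 had none in either library. Reads in both libraries were found for 112. Of the other miRNA genes 29.6% had a read. Many of those share sequence with another hairpin, and over genes without a shared stretch of 20 bases the shares were 164 of 197 members (83.2%) and 462 of 918 others (50.3%). Among the 250 other late registry entries (numbered 5000 or more) without a shared stretch, 95 had a read (38%). Among the 51 other genes at an intron end without a shared stretch, 42 had one (82.4%).

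Far fewer members passed a firmer minimum. Detection, taken as 10 or more reads in both libraries, was reached by 43 members (21.4%), against 18.4% of all 2202 annotated miRNA genes. Over genes without a shared stretch of 20 bases the order turned, with 43 of 197 members (21.8%) and 280 of 918 other genes (30.5%). By the same minimum 24 of the 55 other genes at an intron end (43.6%) and 23 of the 269 other late entries (8.55%) were detected. All 43 detected members ended exactly on the last base of an intron. Since 187 of the 201 do, this adds little to the position itself. Together 87 members had 1 to 9 reads over the libraries, 69 had 10 to 99, and 9 had 100 or more. A gene at 0 reads could stand at up to 0.784 CPM in library 1 and 0.659 CPM in library 2 (3 counts of the total), so absence was not shown for any of the 36.

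As a group the members held a very small share of the miRNA reads, nearly the same in both libraries. They took 2719 reads in library 1, or 0.0710% (exact 95% binomial interval 0.0684 to 0.0738), and 3244 reads in library 2, or 0.0712% (0.0688 to 0.0737). The mean was 0.0711% ± 0.000142 (SD, n = 2). Without Mir7080 the shares lay further apart, at 0.0553% in library 1 and 0.0575% in library 2 (0.0564% ± 0.00161, SD, n = 2). The intervals cover counting error only, since PCR copies of a molecule cannot be recognised. The median member stood at 0.721 CPM, and the median of the 43 detected was 6.66 CPM, against 144 CPM for the 363 other detected genes. The 55 other genes at an intron end took 1.49% ± 0.00166 of the reads.

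**Figure D2:**
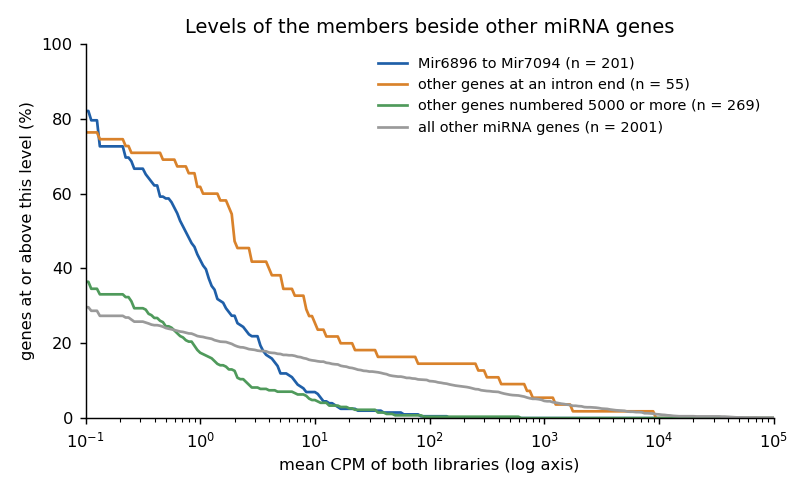
Percent of genes (y axis) at or above each mean CPM (x axis, log scale) for the 201 members, the 55 other genes at an intron end, the 269 other genes numbered 5000 or more and all 2001 other miRNA genes. The curve of the members starts highest, at 82.1% with a read, and falls below that of all other genes before 10 CPM.

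A few members held much of this share. The 5 highest, Mir7080, Mir7047, Mir7044, Mir6944 and Mir6982, took 51.2% of the members' reads in library 1 and 46.4% in library 2 (48.8% ± 3.37, SD, n = 2). The 20 highest took 71.9% and 70.0%. Only Mir7080 exceeded 100 CPM, and it ranked 181st of all miRNA genes. A mean of 10 CPM or more was reached by 14 members.

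Mir7080 had 604 reads in library 1 and 624 in library 2, or 158 and 137 CPM. Its hairpin is the whole 67-base intron of Cpne7, the gene of copine 7, a calcium-dependent membrane-binding protein. Some annotated transcripts of Cpne7 keep this intron as exon sequence. Mir7047 had 331 reads in each library, or 86.5 and 72.7 CPM. Its hairpin lies at the 3′ end of an intron, in the tailed layout. Mir7044 had 213 and 283 reads, or 55.7 and 62.2 CPM. It closes a 705-base intron of Rasgef1a, which codes for a guanine nucleotide exchange factor of Ras-type GTPases.

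Mir6944 had 155 and 165 reads, or 40.5 and 36.2 CPM. It is the whole 96-base intron of Dbn1, the gene of drebrin, an actin-binding protein of dendritic spines, and the second of the intron-filling members by level. Mir6982, in a 746-base intron of Camk2a, the alpha subunit of the calcium and calmodulin-dependent kinase of excitatory synapses, had 88 and 102 reads, or 23.0 and 22.4 CPM. These 5 members kept the same order in both libraries, and each stood above the next without overlap of the library values. Mir7066 came next with 51 and 86 reads, or 13.3 and 18.9 CPM, at the end of a 1420-base intron of Ncan, which codes for neurocan, a proteoglycan of the brain's extracellular matrix.

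Mir7019 in Pink1, a kinase of mitochondrial quality control, had 56 and 74 reads, or 14.6 and 16.3 CPM. Mir6953 in Grina, the gene of a glutamate receptor-associated membrane protein, had 54 and 65 reads, or 14.1 and 14.3 CPM. Mir7052 in Josd2, a deubiquitinating enzyme, had 45 and 62 reads, or 11.8 and 13.6 CPM. Mir7019 stood above Mir6953, and Mir6953 above Mir7052, without overlap, while Mir7066 and Mir7019 overlapped. Mir7004 in Atp9a, a P4-type ATPase of endosomes, had 33 and 63 reads, or 8.62 and 13.8 CPM, the widest fold between libraries (1.60) among the 10 highest members.

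The next 10 members ran from 11.2 down to 6.80 CPM, with overlapping values between each neighbouring pair. They were Mir6897 in Uggt1, a folding sensor of the endoplasmic reticulum (11.2 ± 1.83 CPM, SD, n = 2), Mir6954 in Mroh1 (10.8 ± 0.530), and Mir7069 in Farsa, a subunit of phenylalanyl-tRNA synthetase (10.7 ± 1.05). Below them came Mir7046 in Rabac1, a prenylated Rab acceptor (10.1 ± 1.30), and Mir7056 in Ptpn5, a striatum-enriched tyrosine phosphatase (7.32 and 9.44 CPM). Mir6900 in Ndufa10, a subunit of respiratory complex I, was at 8.24 ± 0.166 CPM, and Mir6945 in Pdlim7 at 7.59 ± 0.757. The last were Mir6990 in Esrra, an orphan nuclear receptor (7.30 ± 0.389), Mir6915 in Ankrd52 (6.93 ± 2.03) and Mir6959 in Sbf1 (6.80 ± 0.0104). Over the 19 neighbouring pairs of the 20 highest members, 7 did not overlap, all among the first 9. Non-overlap of 2 values is a description and not a test, and Mir7019 and Mir6953, for example, differed by 2 reads in library 1 (56 and 54). The other 23 detected members lay between 2.51 and 6.67 CPM.

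**Figure D3:**
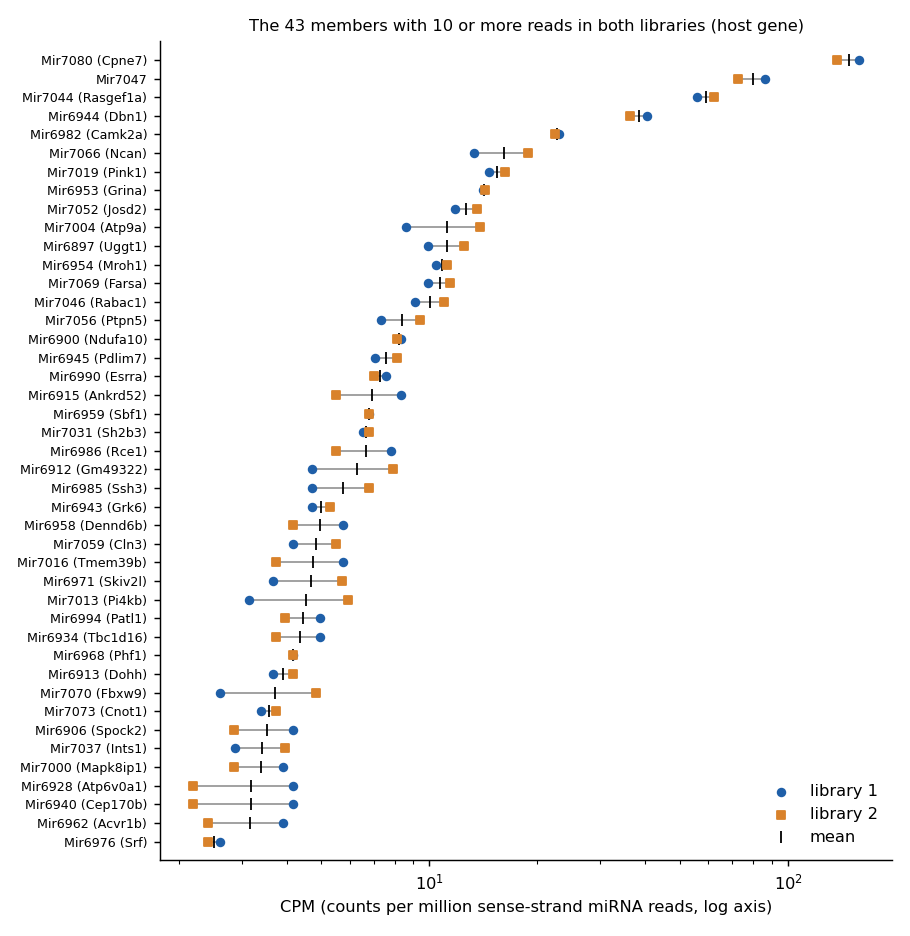
Level of each of the 43 detected members (x axis, CPM on a log scale) in library 1 (blue circles) and library 2 (orange squares), with the mean as a bar and, for all but Mir7047, the host gene in parentheses. Mir7080 to Mir6982 keep their order in both libraries, and most of the lower members overlap.

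Intron-filling and tailed members had similar shares detected. Among the 18 intron-filling members 4 were detected (22.2%): Mir7080, Mir6944, Mir6958 in Dennd6b with 22 and 19 reads, and Mir7070 in Fbxw9 with 10 and 22. Another 9 had 1 to 11 reads in all, among them Mir7068 in Cherp with 5 and 6. The 5 with none were Mir6981, Mir7088, Mir6923, Mir7018 and Mir7091, of which Mir6923 sits in the skeletal myosin gene Myh3. The 18 took 1660 reads, of which Mir7080 gave 1228. Among the 178 members at a 3′ end only, 39 were detected (21.9%), with 4283 reads. The 3 members at a 5′ end had 8 reads together and the 2 in exons 12, so neither class was detected.

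Shares detected were also similar across lengths of the tail ahead of the hairpin. Tails ran from 11 bases, in Mir7046, to 36205 bases, in Mir6899 in Klf7, with a median of 508.5. Of 45 members with a tail of up to 100 bases 9 were detected (20.0%), of 73 with 101 to 1000 bases 16 (21.9%), and of 60 with over 1000 bases 14 (23.3%). The highest member with a tail over 1000 bases was Mir7066, at 16.1 CPM. Mir6962 ends an intron of 19696 bases in Acvr1b, an activin receptor, and had 15 and 11 reads. Mir7031 ends one of 9193 bases in Sh2b3, an adaptor of cytokine receptors, and had 25 and 31. The median host intron was 540 bases long for detected members and 453.5 for the rest. Detected members had a median GC content of 59.3% and the rest 56.3%, with median folding energies of -26.7 and -25.6 kcal/mol.

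**Figure D4:**
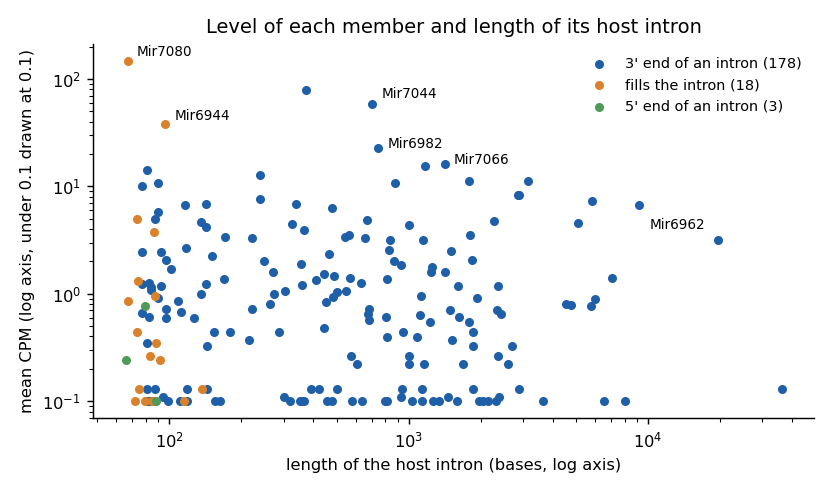
Mean CPM of each member at an intron end (y axis, log scale, values under 0.1 drawn at 0.1) against the length of its host intron in bases (x axis, log scale), with colours for the 3 position classes. The 5 highest members lie in introns of 67 to 746 bases, and detected members occur up to the 19696 bases around Mir6962.

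For 28 members the hairpin also lay inside an exon of another transcript, often one annotated as a retained intron. Of these, 8 were detected (28.6%), against 35 of the 173 others (20.2%). The deposited values are totals per gene and hold no read positions. Reads of a mature arm, of the loop and of a piece of the host transcript can therefore not be told apart here.

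A small part of the members passed a test between the libraries. Every gene with 10 or more reads in the libraries together entered an exact binomial test, two-sided and conditional on the library totals, with Benjamini-Hochberg adjustment over all 508 and a threshold of 0.05. It compares 2 libraries and holds counting error only, so it says nothing about conditions. Of the 78 members tested it called 8 (10.3%), where 48.4% of all tested genes were called. Tested members were sparse, with a median of 29 reads against 250.5 over all tested genes. Among all 197 genes with 10 to 99 reads 12.7% were called, and among the 69 members in that range 7. Of the 9 members with 100 or more reads 1 was called, also a lower share than the 48.4% of all tested genes. The part of depth in the lower share of members was not tested. Library 1 was the higher for 3 of the 8 called members and library 2 for 5, beside 25.2% and 23.2% of all tested genes called in those directions. At an unadjusted p under 0.05 there were 12 of the 78 members, beside 265 of all 508 tested genes.

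Mir7080, with its 604 and 624 reads, was called with a log2 ratio of library 1 over library 2 of 0.20 (exact 95% interval 0.04 to 0.37, adjusted p = 0.0297 by the exact binomial test). It was the only called member with over 100 reads. Mir7071 in Heatr3, a ribosomal protein import factor, had 18 reads in library 1 and 3 in library 2 (log2 2.84, interval 1.06 to 5.24, adjusted p = 0.000617, exact binomial test). Mir6979 in Diaph1, an actin-nucleating formin, had 12 and 4 (log2 1.84, adjusted p = 0.0473, exact binomial test). These 3 were higher in library 1.

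In library 2, Mir7045 was the higher with 21 reads against 2 (log2 ratio -3.14, interval -6.28 to -1.11, adjusted p = 0.00056, exact binomial test). It ends an intron of Chd4, a chromatin remodelling enzyme of the NuRD complex. Mir7039 in Smurf1, a ubiquitin ligase, had no read in library 1 and 16 in library 2 (adjusted p = 0.000177, exact binomial test). Set against a floor of 3 counts in library 1, its 16 reads gave a 4.48-fold higher level in library 2. That value leaves out the counting error of library 2 and is not a lower limit. The exact 95% interval of its log2 ratio, which holds the error of both counts, reached up to -1.70. Mir7063 in Ap2a2, a clathrin adaptor subunit, had 6 and 23 reads, Mir6907 in Rrp1, a ribosomal RNA processing factor, 7 and 22, and Mir6935 in Actg1, gamma-actin, 1 and 10. Their adjusted p-values by the exact binomial test were 0.0179, 0.0497 and 0.0318. With the spread between the samples added, the exact test of edgeR with a common dispersion (coefficient of variation 33.2%) called none of the 78 members. Of all 508 tested genes it called 0.787%. Its unadjusted p was under 0.05 for 3 members, beside 25 of all tested genes. The dispersion was estimated from the same 2 libraries taken as 1 group, so this test cannot tell a difference between them from spread. The 8 members thus passed the test that holds counting error only. None passed the one that adds the spread between these same libraries, estimated over all tested genes.

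**Figure D5:**
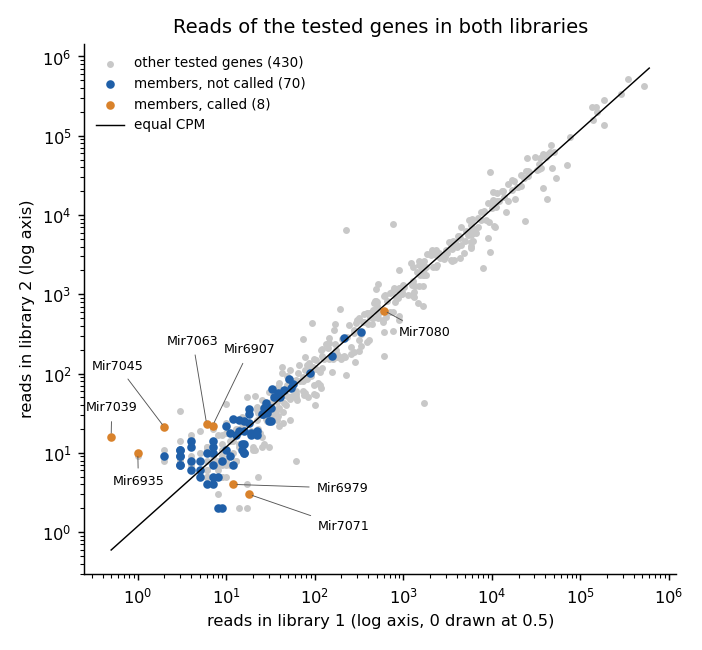
Reads in library 1 (x axis) and library 2 (y axis) of the 508 tested genes, both on log scales with 0 drawn at 0.5, with members in blue or, where called by the exact binomial test, orange and other genes in grey. The line marks equal CPM, and 7 of the 8 called members have under 100 reads.

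Among the detected members the folds between libraries were small, which the minimum of 10 reads in both libraries partly sets, since it leaves out 7 of the 8 called members. The 43 detected members differed between libraries by a median of 1.26-fold, 33 of them by no more than 1.5-fold with 1.90-fold as the widest difference. Across these 43 genes, which are not replicates, log2 CPM correlated with a Pearson r of 0.940 and a Spearman rho of 0.856, as a description. The smallest differences were in Mir6968 in Phf1, with 16 and 19 reads, and in Mir6959, with 26 and 31. Mir6928 in Atp6v0a1 and Mir6940 in Cep170b had the widest, each with 16 and 10 reads.

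A further 17 members had 10 or more reads in 1 library only, and they were mostly higher in library 2, the deeper library. In library 1 these were Mir7071, Mir6979, Mir6989 in Map4k2 (11 reads against 9) and Mir7026 in Ep400 (12 against 7). The 13 in library 2 were the called Mir7045, Mir7039, Mir7063, Mir6907 and Mir6935, and 8 that were not called. The latter ran from Mir6987 in Pcnx3, with 6 reads in library 1 and 10 in library 2, to Mir7083 in Dock6, with 4 and 14. Others were Mir7036 in Srrt (7 and 12), Mir6998 in Fubp3 (7 and 10) and Mir7051 in Etfb (4 and 12). Mir6918 in Nipsnap1 and Mir7054 in Scaf1 had the same counts, 3 and 11. No member had 10 antisense reads: over all 201 there was 1, on Mir7071 in library 1.

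Members rarely shared a seed. The mature sequences of members held 325 different seeds, of which 25 occurred in 2 or more members and none in more than 3. Among the 25, ACUCUGC is the seed of miR-7094-3p, counted for 2 copies of the same miRNA. Seed sharing among the other miRNA genes was not counted, so there is no rate to set beside this. The seed UCUGGGA was shared by the 5p arms of Mir7019 and Mir6907, and GAGGGAG by those of Mir7047 and Mir6965 and by miR-3103-5p. The 3p arm of Mir7039 had the seed CUGUUCU, as had those of Mir6932 and of Mir26a-2 and Mir26b. In all, 50 members had a seed that also occurs in a mature miRNA outside the group. The shared pairs read as follows, with the seed in capitals, and the bases after it differ.
mmu-miR-7019-5p: aUCUGGGAggggcugucaggagu
mmu-miR-6907-5p: uUCUGGGAcacagggaggcucg
Which arm gave the reads of a gene was not analysed here.

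Other miRNA genes that fill an intron stood well above the members of the same layout. The 11 of them had a median of 77.6 CPM and 9 were detected, while the 18 members had a median of 0.306 CPM and 4 were detected. Mir3102 in Arhgef17 had 3120 and 3294 reads, or 769 ± 64.9 CPM (SD, n = 2), and Mir1981 in Marc2 674 ± 170. Mir1224 in Vwa5b2 and Mir877 in Abcf1, mirtrons known from mammals, stood at 415 ± 38.8 and 308 ± 30.7 CPM, and Mir702 in Plod3 at 253 ± 53.8. Mir7080, at 147 ± 14.7 CPM, lay below all of these 5 and above the median of the 11. Mir3102, Mir1981 and Mir1224 were named because they are the highest of the 11, so their place above Mir7080 is partly set by that choice. The hairpin of Mir702 starts 9 bases ahead of its intron and stops 2 bases short of the intron's end, while those of the other 4 and of Mir7080 coincide with the intron. The difference is a description of these 2 libraries, with no test.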

How the data were processed

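Small RNA of 2 cortex libraries was analysed. The authors deposited whole-number read counts per miRNA gene, not normalized, in 3 columns (strand ignored, and either strand), per the file layout. The genome was mm10 and the annotation GENCODE M21, per the labels and deposited descriptions. No source used here names the aligner or the adapter trimming. The layout is that of STAR gene counts, in which reads mapped to several places go to no gene. Since mm10 is the C57BL/6J sequence, reads with CAST/EiJ differences may be missing. Libraries 1 and 2 held 11372894 and 12980686 reads, of which 33.7% and 35.1% were sense-strand miRNA reads, and tally rows were kept out of totals.

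CPM used these sense totals. The tests, the alternatives and the comparison groups are as given with the results, and the sample groups came from the labels. With 1 group no comparison of conditions was possible. Introns, hosts and hairpin sequences came from GENCODE M21, mature arms from RefSeq, and folding energies from RNAfold 2.7.2. Pyrimidine, GC and seed values were computed from those sequences. Named genes are the 20 highest members, all called members, those with 10 or more reads in 1 library, and known or high intron-filling genes outside; any other gene named is an example, picked with its values in view. The members and lists were chosen with earlier results of these data known. Tools were edgeR 4.0.16 and DESeq2 1.42.0 (size factors only) in R 4.3.3, then numpy 2.4.6, scipy 1.17.1 and pandas 2.3.3 in Python 3.11.15. The host genes of a few members are not reported here. The binomial test was checked on data simulated with counting error only, the error it assumes, so the check does not cover spread between samples. Alternatives were other minimums, scalings, totals and tests, the column that ignores strand, other intron-end distances and each library alone.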

Additional observations from a re-analysis of the deposited data

Results flagged for a closer look

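A large part of each library lies outside the counts per gene. In library 1, 41.7% of the reads mapped to more than 1 place, and in library 2 41.1% did, while unique reads outside the sense strand of miRNA genes came to 5.03% and 4.94%. These shares were singled out because none of the counts per gene use them. How many come from the 4 members that share a stretch with another hairpin was not analysed here.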

How the results depend on the processing

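The number of detected members followed the minimum: 112 members had 1 or more reads in both libraries, 58 had 5 or more and 22 had 20 or more, of which 111, 58 and 22 lay at an intron end. A single library gave 47 to 56 detected members and 138 to 139 with a read. The share of reads in members was 0.0244% of all reads, 0.0621% of uniquely mapped reads and 0.0768% when strand was ignored. It was 0.0564% without Mir7080, an alternative chosen after seeing the data, and 0.0710% to 0.0712% in a single library. The 5 highest members took 46.4% to 51.2%. Members called between libraries numbered 9 with TMM factors (8 shared with the main test) and 7 with DESeq2 size factors (6 shared). Of all 508 tested genes these settings called 250 and 246. With strand ignored 7 members were called (7 shared), beside 222 of all 481 tested genes. With no minimum on reads 12 members were called (6 shared), beside 251 of all 758. At 30 or more reads 2 were called, Mir7047 and Mir7080, beside 234 of all 394 tested genes. The exact test of edgeR called 0 members and 4 of all 508 tested genes. Its unadjusted p was under 0.05 for 3 members and for 25 of all tested genes. With DESeq2 size factors Mir7080 and Mir6979 missed the threshold (adjusted p = 0.0979 and 0.0504, exact binomial test), and Mir6907 did with strand ignored (0.0519). Members at an intron end numbered 190 to 200 for distances of 0 to 30 bases and 197 with protein-coding transcripts only, and 4 shared a stretch of 18, 20 or 24 bases. No direction reversed in the alternatives run. No paired analysis was possible because the series has 1 group. Depth limits the 156 members with under 100 reads that had any, whose order and ratios carry wide counting intervals.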
